A study of Rattus norvegicus with 3 samples.

Results

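The thrombospondins Thbs1, Thbs2, Thbs3 and Thbs4 and their relative cartilage oligomeric matrix protein, encoded by Comp, were 5 of the 20896 gene names in single-cell RNA tables of rat jaw joint condyles. The genes were selected by name, and chosen with their measured values known, namely their levels in each cluster and library, so those values are given here as descriptions with no test. A UMI is the molecular tag that marks 1 captured RNA molecule. Each of the 5 names was present in each of the 3 libraries, which held 19241, 19665 and 19725 names.

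Cartilage and subchondral bone of the mandibular condyle came from 24 wild-type SD rats in 3 groups, each animal having had an adeno-associated virus (AAV) injected into the temporomandibular joint. The sham group had Vector AAV and no bite change. The UAC group had Vector AAV and unilateral anterior crossbite (UAC), a misaligned bite that overloads the joint, and the UAC + miR-330 group had the crossbite and an AAV carrying the microRNA miR-330. That last group was read from the study design and a title naming a UAC treatment, since the treatment labels of the 3 libraries do not say which AAV was given. Rats were kept for 8 weeks, and the 16 condyles of a group were pooled into 1 library, so animals could not be told apart and no difference has a replicate check. The libraries held 77668015, 92629658 and 97255383 UMIs in 15, 18 and 19 clusters for sham, UAC and UAC + miR-330. The arms of rat miR-330 are shown because this microRNA is the only agent that separates the last 2 groups. Target sites for them in the 5 genes were not searched. RefSeq (build GRCr8) lists both mature arms, printed 5′ to 3′ with the seed, bases 2 to 8, in capitals; which arm the virus was meant to supply was not given in the sources used here. The arms lie at chr1:87961227-87961248 and chr1:87961266-87961288 on the plus strand.
rno-miR-330-5p: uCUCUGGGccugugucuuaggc
rno-miR-330-3p: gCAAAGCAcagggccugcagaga

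Thrombospondins are secreted glycoproteins that bind calcium and link matrix molecules to each other and to cell surfaces. THBS1 and THBS2 form trimers and carry type 1 repeats, the modules that bind CD36 and, in THBS1, activate latent TGF-beta, while THBS3, THBS4 and COMP form pentamers that lack those repeats. In cartilage and tendon COMP binds fibrillar collagens and collagen IX and helps fibrils assemble, and its fragments are released when cartilage matrix is broken down.

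Clusters were numbered separately in each library and were named from marker genes. Cluster 12 of sham, 16 of UAC and 17 of UAC + miR-330 each held the most enriched chondrocyte markers of their library, 17, 16 and 16 of 18, where enriched means at least 10 UMIs and a log2 ratio of at least 1 over the other clusters. These clusters were also enriched for 11, 12 and 12 of 12 osteogenic markers and for 10, 10 and 11 of 12 fibroblast markers, so each is called the skeletal cluster. It took 11.6%, 6.46% and 6.05% of the library's UMIs. Cluster 15 of sham, 9 of UAC and 10 of UAC + miR-330 were enriched for 14 of 14 monocyte and macrophage markers and are called macrophage-like. They were also enriched for 6, 4 and 6 of 8 dendritic cell markers. Clusters with at least 6 enriched neutrophil markers, a number set after the markers were seen, are called neutrophil-like.

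Comp gave 59401, 35431 and 26528 UMIs in the skeletal clusters of sham, UAC and UAC + miR-330. Levels are given as CPM, the UMIs of a gene for each 1000000 UMIs of its cluster or library. Comp stood at 6586, 5925 and 4508 CPM, with exact Poisson 95% intervals of 6533 to 6639, 5863 to 5987 and 4453 to 4562. Intervals on UMIs cover counting error only. The level was highest in sham and lowest in UAC + miR-330, and no interval overlapped another. The log2 ratio, with 0.5 UMI added to each count, was −0.15 (−0.17 to −0.13) for UAC against sham and −0.39 (−0.42 to −0.37) for UAC + miR-330 against UAC. The first of these turned to 0.04 on the deposited mean counts, a scale that raises every gene by 0.20 in that comparison and by 0.24 in the other, where Comp kept its sign.

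Thbs3, a pentamer found in developing cartilage and bone, had 3295, 1850 and 1482 UMIs in the skeletal cluster. Its levels were 365 (353 to 378), 309 (295 to 324) and 252 (239 to 265) CPM in sham, UAC and UAC + miR-330. Like Comp it was highest in sham and lowest in UAC + miR-330 with intervals apart, at log2 ratios of −0.24 (−0.32 to −0.16) and −0.30 (−0.40 to −0.20). On the deposited mean counts these were near 0, at −0.04 and −0.06. For each 1000 Comp UMIs the cluster held 55.5 (53.5 to 57.5), 52.2 (49.8 to 54.7) and 55.9 (53.0 to 58.9) Thbs3 UMIs, and these exact intervals overlapped. The pair therefore kept nearly the same proportion in the 3 libraries while both levels differed.

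Thbs4, a pentamer abundant in tendon and at muscle attachments, had 234, 235 and 197 UMIs in the skeletal cluster. Its levels were 25.9 (22.7 to 29.5), 39.3 (34.4 to 44.7) and 33.5 (29.0 to 38.5) CPM. UAC lay above sham, and the interval of UAC + miR-330 overlapped both. The log2 ratio was 0.60 (0.33 to 0.87) for UAC against sham, a 1.51-fold rise, and −0.23 (−0.51 to 0.05) for UAC + miR-330 against UAC, which turned to 0.01 on the deposited mean counts. With median-of-ratios scaling, which lowers every ratio of that comparison by 0.13, the first ratio was 0.47, below the 1.5-fold used for a call. The 6 skeletal muscle markers of the cluster, led by Tnni2 with 3, 3 and 4 detected and Acta1 and Mb at 0, summed to 133, 33.4 and 91.4 CPM, of which Tnni2 made up 109, 17.2 and 73.9. The 5 tendon and ligament markers, of which 5, 5 and 4 were detected, summed to 1913, 1519 and 1656 CPM. Fmod made up 1895, 1498 and 1635 of these, and Kera was at 0 in UAC + miR-330. The part of muscle or tendon RNA in the Thbs4 level was not tested.

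Thbs2, a trimer known from connective tissue fibroblasts and as a limiter of blood vessel growth, had 416, 344 and 315 UMIs in the skeletal cluster. Its levels were 46.1 (41.8 to 50.8), 57.5 (51.6 to 63.9) and 53.5 (47.8 to 59.8) CPM. Sham was the lowest, UAC lay just above it with intervals apart, and UAC + miR-330 overlapped both. The log2 ratios were 0.32 (0.11 to 0.53) and −0.10 (−0.33 to 0.12), and the second turned to 0.13 on the deposited mean counts.

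Thbs1, the trimer best known for activating TGF-beta and for its store in platelets, had 178, 144 and 652 UMIs in the skeletal cluster. Its levels were 19.7 (16.9 to 22.9), 24.1 (20.3 to 28.3) and 111 (102 to 120) CPM in sham, UAC and UAC + miR-330. Sham and UAC overlapped, and UAC + miR-330 stood far above both. The log2 ratio was 0.29 (−0.04 to 0.61) for UAC against sham and 2.20 (1.94 to 2.47), a 4.60-fold rise, for UAC + miR-330 against UAC. Of the 12398 genes with at least 10 UMIs in the latter comparison, 40 had a larger ratio.

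**Figure D1:**
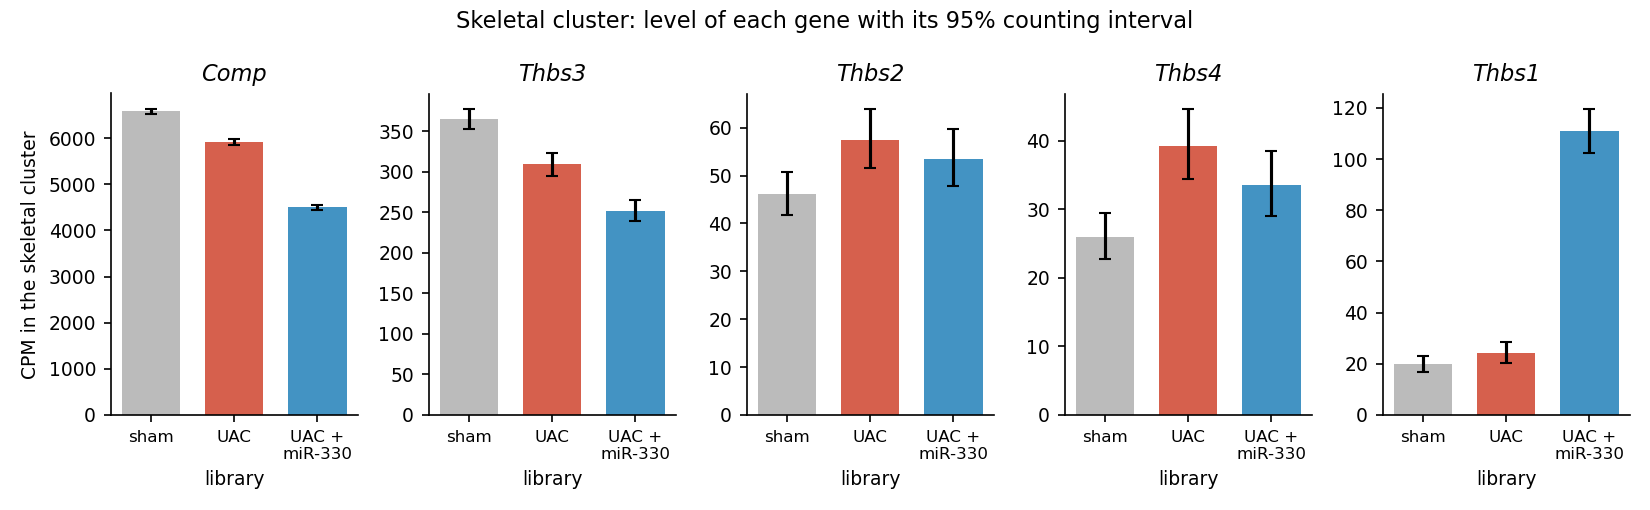
CPM of each gene in the skeletal cluster of each library (sham, UAC, and UAC with miR-330), with bars from 0 on a separate axis for each gene and exact Poisson 95% intervals of counting error. Comp and Thbs3 step down from sham to UAC + miR-330, whereas Thbs1 stands at 111 in UAC + miR-330 against 19.7 and 24.1 in the others.

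A call was made where the pair of libraries summed to at least 10 UMIs of a gene, with a ratio of at least 1.5-fold and Poisson 95% intervals that did not overlap. In the skeletal cluster, 1 of the 5 genes, Thbs4, was called higher in UAC than in sham and 0 were called lower, where 6.81% of 12606 genes were higher and 1.02% lower. Against UAC, 1 of the 5, Thbs1, was called higher in UAC + miR-330 and 0 lower, where 5.53% of 12398 genes were higher and 5.28% lower. The median log2 ratio of the 5 was 0.29 beside 0.15 over all genes in the first comparison, and −0.23 beside 0.01 in the second. Both comparisons use the same UAC library.

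What each skeletal cluster contains also differed between libraries. Its 18 chondrocyte markers summed to 56902, 44608 and 61057 CPM, its 12 osteogenic markers to 70914, 61441 and 61756, and its 12 fibroblast markers to 6700.5, 6735 and 5485, led by Col2a1, Col1a1 and Col3a1. Chondrocyte markers were thus lowest in UAC, and fibroblast markers were lowest in UAC + miR-330. For each 1000 chondrocyte marker UMIs there were 116, 133 and 73.8 Comp UMIs, for each 1000 osteogenic marker UMIs 92.9, 96.4 and 73.0, and for each 1000 fibroblast marker UMIs 983, 880 and 822. Comp was therefore lowest in UAC + miR-330 on each base, but UAC lay above sham on the chondrocyte and osteogenic bases, against the order in CPM, and below it on the fibroblast base. Thbs1 came to 0.347, 0.540 and 1.81 UMIs for each 1000 chondrocyte marker UMIs, to 0.278, 0.392 and 1.79 on the osteogenic base and to 2.95, 3.58 and 20.2 on the fibroblast base, highest in UAC + miR-330 on each. Thbs3 gave 6.42, 6.93 and 4.12 on the chondrocyte base, 5.15, 5.03 and 4.08 on the osteogenic base and 54.5, 45.9 and 45.9 on the fibroblast base, so UAC lay above sham on the first of these and level with UAC + miR-330 on the last. Thbs4 gave 0.456, 0.881 and 0.548 on the chondrocyte base, 0.366, 0.640 and 0.542 on the osteogenic base and 3.87, 5.83 and 6.10 on the fibroblast base, lowest in sham on each. Thbs2, at 0.811, 1.29 and 0.877, then 0.650, 0.936 and 0.867, then 6.88, 8.54 and 9.76, was also lowest in sham on each.

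Prg4, the lubricin gene of surface chondrocytes and the synovial lining, moved alongside Thbs1 in this cluster, from 6 UMIs in sham and 23 in UAC to 429 in UAC + miR-330. That is 0.665, 3.85 and 72.9 CPM. The 5 synovial lining markers together, all detected, gave 1157, 964 and 907, of which Htra1 made up 1131, 929 and 801. Of the other markers in that list Clu had 16.9, 15.9 and 19.5, Cd55 6.43, 10.5 and 7.14, and Sema3a 2.33, 4.01 and 7.14. The part that such cells play in the Thbs1 level was not tested. Among other lists that differed were the 10 neutrophil markers, led by S100a9 in UAC, at 1238, 4330 and 847 CPM with only Ltf at 0 in sham and UAC + miR-330, and the 8 endothelial markers, of which 8, 4 and 3 were detected, at 53.1, 11.9 and 10.7. The 6 cycling markers, all detected and led by Ube2c in sham and UAC and by Mki67 in UAC + miR-330, gave 97.5, 232 and 110, and the 5 granulocyte progenitor markers, of which 3, 5 and 5 were detected, 3.10, 15.9 and 4.08, with Prtn3 and Ms4a3 at 0 in sham. Of the endothelial markers Egfl7 was the most abundant in UAC and UAC + miR-330, and Cdh5, Emcn, Kdr and Tek were at 0 in both. The 12 megakaryocyte and platelet markers summed to 6.10, 2.17 and 2.38, with Ppbp, Gp1ba, Gp6 and Treml1 among those at 0 in each library. The part of any of these cells in the levels of the 5 genes was not tested.

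Across clusters, Comp, Thbs2, Thbs3 and Thbs4 lay almost wholly in the skeletal cluster. In sham, UAC and UAC + miR-330 it held 95.9%, 96.0% and 95.1% of Comp UMIs and 96.1%, 96.5% and 95.9% of Thbs3 UMIs. It held 97.7%, 96.6% and 95.7% of Thbs2 UMIs and 99.6%, 97.9% and 98.5% of Thbs4 UMIs. Of the 5 genes, 4 thus had at least 90% of their UMIs there in each library, as did 4.05%, 2.82% and 2.81% of all genes with at least 100 UMIs. Thbs1 differed, with 66.4% (exact binomial 95% interval 60.4% to 72.0%), 34.1% (29.6% to 38.9%) and 53.1% (50.2% to 55.9%). Clusters were built from these and all other genes, so the shares are a description.

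**Figure D2:**
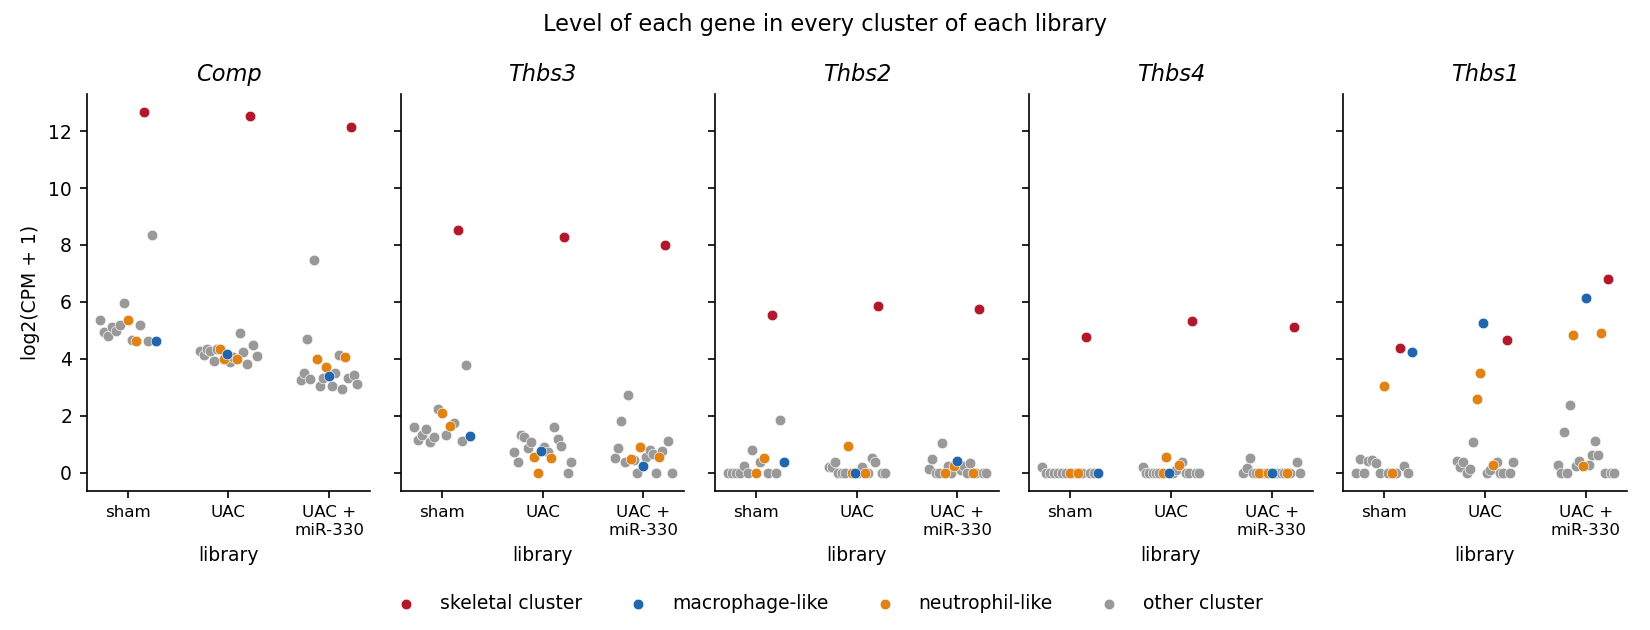
Level of each gene in every cluster, as log2 of CPM plus 1, with 1 point a cluster and 1 column of points a library. For Comp, Thbs2, Thbs3 and Thbs4 the skeletal cluster stands apart from all others, while for Thbs1 the macrophage-like and some neutrophil-like clusters also stand above the rest.

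Outside the skeletal cluster Comp was present in each cluster at a low level. The other clusters ranged from 23.6 to 322 CPM with a median of 32.4 in sham, from 13.0 to 29.2 with a median of 17.0 in UAC, and from 6.66 to 175 with a median of 9.64 in UAC + miR-330. Thbs3 had 52.3 (43.6 to 62.4), 46.1 (35.6 to 58.8) and 47.2 (36.1 to 60.6) UMIs for each 1000 Comp UMIs, each interval overlapping that of the skeletal cluster of its library. Other skeletal transcripts differed from their skeletal proportion, with Col2a1 at 1643, 1363 and 3339 against 4127, 3271 and 5401, and Col1a1 at 5632, 4041 and 6821 against 8715, 7926 and 10884. Bglap was lower outside in sham and UAC, at 1050.0 and 1413 against 1448 and 1667, and higher in UAC + miR-330, at 1873 against 1640.1. Thbs2 had 10, 12 and 14 UMIs in all those clusters together and Thbs4 1, 5 and 3. Whether these UMIs came from free RNA carried into droplets was not tested.

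The highest of those Comp levels were in cluster 14 of sham, at 322 (294 to 352), and cluster 5 of UAC + miR-330, at 175 (160 to 191). Igh-6 and haemoglobin genes were among the leading genes of both. The sham cluster was enriched for 7 of 7 mast cell and basophil markers, and the UAC + miR-330 cluster for 7 of 14 monocyte and macrophage markers. The sham cluster held 20 Thbs3 UMIs, 12.9 (7.89 to 19.9) CPM, and the UAC + miR-330 cluster 16, 5.64 (3.22 to 9.16) CPM. For each 1000 Comp UMIs these are 40.1 and 32.3, beside 55.5 and 55.9 in the skeletal clusters. Both also held other skeletal transcripts, with 9639 Col1a1 UMIs for each 1000 Comp UMIs in the sham cluster, against 8715 in the skeletal cluster, and 8337 against 10884 in UAC + miR-330. Mixed droplets holding more than 1 cell could not be identified from cluster sums.

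Thbs1 was spread differently. In the macrophage-like cluster it had 60, 221 and 416 UMIs in sham, UAC and UAC + miR-330. Those are 17.7 (13.5 to 22.8), 37.7 (32.9 to 43.0) and 69.5 (63.0 to 76.5) CPM, each library above the one before with intervals apart. For each 1000 Comp UMIs the clusters outside the skeletal one held 35.7 (28.6 to 44.0), 188 (165 to 214) and 425 (385 to 469) Thbs1 UMIs, against 3.00, 4.06 and 24.6 in the skeletal cluster. These pooled values rest mostly on the macrophage-like and neutrophil-like clusters, since the remaining clusters held 8, 11 and 30 Thbs1 UMIs beside 2205, 1186 and 1161 Comp UMIs, near the skeletal proportion in sham and UAC + miR-330. In sham the skeletal and macrophage-like clusters overlapped, in UAC the macrophage-like cluster was the higher, and in UAC + miR-330 the skeletal cluster was.

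The log2 ratio of Thbs1 in the macrophage-like cluster was 1.08 (0.67 to 1.52), or 2.12-fold, for UAC against sham and 0.88 (0.64 to 1.13), or 1.85-fold, for UAC + miR-330 against UAC. In this cluster 2 of the 5 genes had enough UMIs, and 1, Thbs1, was called higher in UAC and 0 lower, where 2% of 11234 genes were higher and 6.08% lower. Against UAC 1, Thbs1, was called higher in UAC + miR-330 and 1, Comp, lower, where 9.4% of 11461 genes were higher and 2.17% lower. Neither call held at 2-fold, and that of Comp did not hold with 99% intervals. Comp had 81, 100 and 57 UMIs there, at 23.9, 17.0 and 9.52 CPM, at or below its median over the clusters outside the skeletal one. For each 1000 UMIs of the 14 macrophage markers there were 4.91 (3.75 to 6.33), 15.5 (13.5 to 17.7) and 30.1 (27.2 to 33.1) Thbs1 UMIs, so the order of the libraries was the same on that base. The base itself differed, since those markers summed to 3608, 2437 and 2311 CPM, led by C1qa, Cd14 and Cd68 in turn. Differences per marker UMI are therefore larger than those in CPM.

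Platelets store THBS1, and the 12 megakaryocyte and platelet markers summed to 136, 45.3 and 54.1 CPM in the macrophage-like cluster. Of them 3, 7 and 4 were detected. Pf4 made up 135, 43.3 and 53.1 of these, and Gp1ba, Gp1bb and Gp6 were among those at 0 in each library. The sham cluster also carried 319 CPM of 7 mast cell and basophil markers, led by Cpa3, against 3.75 and 8.02 in the others, and 465 of 8 erythroid markers, led by Hba-a2, against 31.4 and 33.2. The 6 cycling markers summed to 377, 254 and 494, led by Mki67. The 8 dendritic cell markers, all detected and led by Irf8, gave 265, 157 and 256. The 5 granulocyte progenitor markers, all detected and led by Mpo, gave 13.3, 19.4 and 48.9, and the 7 T cell markers, of which 6, 7 and 7 were detected with Cd4 the most abundant and Cd3e at 0 in sham, gave 44.9, 54.2 and 77.2, both in the order of Thbs1. The same order held for the 5 plasma cell markers, all detected and led by Prdm1 in sham and UAC and by Xbp1 in UAC + miR-330, at 75.6, 91.3 and 93.4, and for the 7 NK cell markers, of which 4, 4 and 5 were detected with Klrb1a the most abundant and Ncr1 and Prf1 at 0, at 118, 129 and 132. The 10 neutrophil markers, led by S100a8 with only Ltf at 0 in sham and UAC, gave 6410, 6171 and 4051. The 5 synovial lining markers, of which 4, 3 and 4 were detected with Cd55 the most abundant and Sema3a at 0, gave 205, 384 and 294, of which Prg4 made up 21.9, 45.5 and 45.6. The part of these cells in the Thbs1 difference was not tested.

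Neutrophil-like clusters also held Thbs1, but not all of them did. In the cluster with the interferon genes Ifit3 and Isg15 among its leading genes, number 8 in sham, 8 in UAC and 6 in UAC + miR-330, it had 22, 23 and 67 UMIs. Those are 7.21 (4.52 to 10.9), 10.4 (6.59 to 15.6) and 27.5 (21.3 to 34.9) CPM, with sham and UAC overlapping and UAC + miR-330 above both. In the cluster with Mmp8, Mmp9 and Retnlg among its leading genes, number 7 in UAC and 15 in UAC + miR-330, it had 22 and 63 UMIs, 4.97 (3.11 to 7.52) and 29.0 (22.3 to 37.1) CPM. By contrast, the cluster led by the granule genes Ngp and Lcn2, number 10 in sham, 12 in UAC and 9 in UAC + miR-330, had 0, 1 and 1 UMIs. Neither neutrophil-like cluster of sham had Mmp8 or Mmp9 among its leading genes. Sham cluster 8, however, had Retnlg among them and held the highest Mmp9 level of its library, 923 CPM. It thus shared marks of both the interferon and the Mmp8 kind, and is not a counterpart of the interferon clusters alone. Which clusters match between libraries rests on these leading genes alone, named after their values were seen.

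All neutrophil-like clusters together gave Thbs1 levels of 2.82 (1.77 to 4.27), 4.03 (2.95 to 5.38) and 12.7 (10.6 to 15.0) CPM. These clusters held 8.21%, 10.9% and 10.7% of the gene's UMIs, and the macrophage-like cluster 22.4%, 52.4% and 33.8%. The remaining 11, 13 and 14 clusters held 8, 11 and 30 UMIs, 0.139, 0.159 and 0.400 CPM. Of the 30, 12 were in cluster 5 of UAC + miR-330, at 4.23 (2.19 to 7.39) CPM, a cluster enriched for 7 of 14 monocyte and macrophage markers. Thbs1 was thus above the low pooled level of the remaining clusters in the skeletal, macrophage-like and some neutrophil-like clusters. In each of these kinds it was highest in UAC + miR-330.

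**Figure D3:**
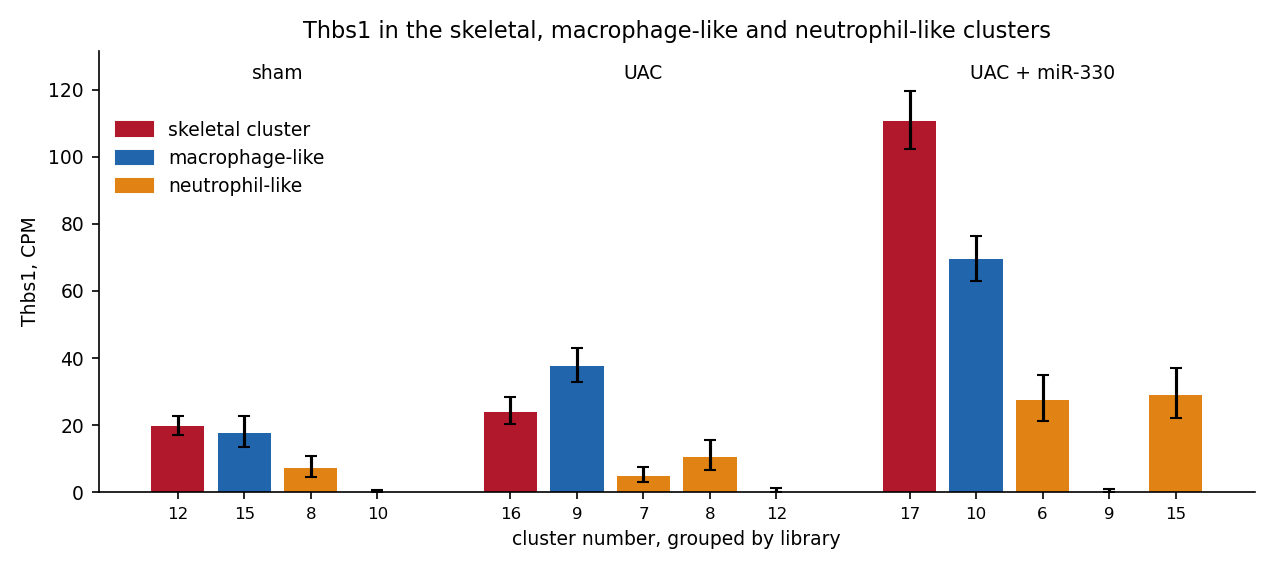
Thbs1 CPM in the skeletal, macrophage-like and neutrophil-like clusters of each library, with cluster numbers on the horizontal axis and exact Poisson 95% intervals. The UAC + miR-330 library reaches 111 in the skeletal cluster, 69.5 in the macrophage-like cluster and 27.5 and 29.0 in a pair of neutrophil-like clusters.

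Summed over whole libraries, Comp gave 797, 398 and 287 CPM and Thbs3 44.1, 20.7 and 15.9. From sham to UAC both fell by close to 2-fold, at log2 ratios of −1.02 to −0.98 for Comp and of −1.09 (−1.17 to −1.01) for Thbs3, far more than within the skeletal cluster, whose share of UMIs fell from 11.6% to 6.46%. In such sums fewer cells and less RNA per cell cannot be told apart. Thbs2 and Thbs4 gave 5.48, 3.84 and 3.38 and 3.03, 2.59 and 2.06 CPM. Thbs1 rose from 3.45 to 4.56 and 12.6 while the skeletal share fell. With the skeletal cluster left out it was 1.31 (1.05 to 1.61), 3.21 (2.84 to 3.61) and 6.31 (5.81 to 6.85), with intervals apart. The macrophage-like cluster took 4.36%, 6.33% and 6.16% of library UMIs, and the part of this share in those levels was not tested. Of the 5 genes 0 were called higher in the UAC library and 2, Comp and Thbs3, lower, where 5.6% of 16687 genes were higher and 4.63% lower. Against UAC, 1, Thbs1, was called higher in UAC + miR-330 and 0 lower, where 8.87% of 16939 genes were higher and 2.74% lower.

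Similarity of pattern was measured as Pearson's r of log2 of CPM plus 1 across the 52 clusters, which share 3 libraries, their depth and their clustering. Comp and Thbs3 had an r of 0.97, and the pairs among Comp, Thbs2, Thbs3 and Thbs4 lay between 0.88 and 0.97. Thbs1 had r of 0.45 to 0.54 with the other 4. Among 13918 further genes with at least 100 UMIs the most similar to Comp were Col3a1 (0.99), Bgn, Col1a1, Col9a2 and Col1a2, which are matrix genes. Those closest to Thbs3 were Col6a2 (0.98), Col3a1, Serpinf1, Fmod and AABR07068316.1. For Thbs2 they were Pcdh18 (0.98), AABR07070046.1, Cobl, Clec3b and Wisp1, and for Thbs4 Evc (0.99), Cpxm2, Olfml1, Lrrc15 and Cdc42ep1. Thbs1 came closest to Sec14l1 (0.89), Dap, Rarg, Prg4 and Fuca1. For Comp 4 of the 5 names were kept with ranks, 4 with clusters of sham alone, 0 with those of UAC alone and 2 with those of UAC + miR-330 alone. For Thbs1 0, 2, 3 and 1 were kept, and for each of the other genes at most 2.

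Matrix partners of COMP and thrombospondins, 18 collagens, proteoglycans, linkers and related genes, had a median log2 ratio of 0.00 in the skeletal cluster of UAC against sham, beside 0.15 over all genes, with 0 of 17 with enough UMIs called either way where 6.81% of all genes were higher and 1.02% lower. The collagens Col1a1 and Col2a1, bound by COMP, gave −0.29 and −0.49, and the small proteoglycan Bgn −0.51. With miR-330 the median was 0.23 beside 0.01, with 3 higher and 2 lower, beside 5.53% and 5.28% of all genes. The collagen IX chain Col9a3 (1.19), the matrilin Matn3 (1.08) and the sulphate transporter Slc26a2 (0.65) were higher, and Ecm1 (−0.92) and Col1a2 (−0.72) lower. Col2a1 was at 0.33 and not called, as Comp was not.

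Of 16 proteases and inhibitors that act on COMP and thrombospondins, 6 were called higher in the skeletal cluster of UAC than of sham, 0 lower and 10 were not called, where 6.81% of all genes were higher and 1.02% lower. Their median was 0.65 beside 0.15. Mmp13, a collagenase of cartilage, rose from 140 to 411 CPM, a log2 ratio of 1.55, and Adamts4 rose from 16 to 40 UMIs, at 1.89. Mmp9 went from 104 to 117 UMIs, at 0.76. Against UAC 2 were higher and 2 lower in UAC + miR-330, where 5.53% and 5.28% of all genes were, with a median of −0.20. Mmp9 was at −2.81 and Mmp13 at −0.71, while the aggrecanase Adamts5 (0.64) and the inhibitor Timp3 (0.60) were higher. The most abundant, Htra1 and Mmp2, were lower in both comparisons, between −0.28 and −0.22, and were not called. Mmp9 is also a neutrophil product, and its part from the neutrophil RNA described above was not tested.

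Among 21 thrombospondin receptors and cell surface partners, 20 were matched to a name in the tables, Cd36 being the exception. In the skeletal cluster 2 of 19 were called higher in UAC, Itgb2 (1.68) and Sdc1 (0.73), and 0 lower, beside 6.81% and 1.02% of all genes. In UAC + miR-330 3 were higher than in UAC, Cacna2d1 (0.97), a calcium channel subunit that binds thrombospondins, Itga6 (0.81) and Vldlr (0.68), and Itgb2 (−1.49) was lower, beside 5.53% and 5.28%. Itgb2 was highest in a neutrophil-like cluster of each library, had under 1% of its UMIs in the skeletal cluster and moved there with the neutrophil markers, and the part of neutrophil RNA in its change was not tested. The most abundant, Calr, Sdc4 and Itgb1, were not called. In the macrophage-like cluster, where Thbs1 rose, the receptor Cd47, chosen after the values were seen as was its partner Sirpa, had 310, 316 and 339 CPM and Sirpa 168, 109 and 144. Of the 17 and 16 genes with enough UMIs there, 3 were higher and 2 lower in each comparison, beside 2% higher and 6.08% lower over all genes in UAC against sham, and 9.4% and 2.17% in UAC + miR-330 against UAC. Sdc4, a proteoglycan that binds thrombospondins, went from 72.1 to 128 and 60.8 in that cluster. The part of any of these receptors in the Thbs1 level was not tested.

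Latent TGF-beta and its activators, 11 genes, had 2 called higher in the skeletal cluster in UAC, Itgb8 (from 8 to 22 UMIs) and Ltbp2 (1.54), and 0 lower, beside 6.81% and 1.02% of all genes. In UAC + miR-330 0 of 11 were called either way, beside 5.53% higher and 5.28% lower. Tgfb1 had 155, 162 and 127 CPM there, lowest in UAC + miR-330. Tgfb2 had 165, 222 and 232, lowest in sham.

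Of the 29 other genes with thrombospondin type 1 repeats, 26 were matched. In the skeletal cluster 6 of 17 with enough UMIs were called higher in UAC and 0 lower, beside 6.81% and 1.02% of all genes. Among the 6 were Wisp2 (from 11 to 30 UMIs), Nov (1.17), Adamtsl4 (0.94) and Cyr61 (0.81). In UAC + miR-330 1 of 15 was higher, Spon1 (2.26, from 17 to 82 UMIs), beside 5.53% of all genes. The 2 lower were Cfp (−1.33, from 34 to 13 UMIs) and Adamtsl4 (−0.92), beside 5.28%. Neutrophil markers of the cluster went from 4330 to 847 CPM between these libraries, and the part of neutrophil RNA in the Cfp level was not tested. Ctgf, the most abundant, had 1930, 1601 and 1380 CPM. Of 11 other matricellular proteins with enough UMIs, 1, Spp1 (0.74), was called higher in UAC and 0 lower, beside 6.81% and 1.02% of all genes. In UAC + miR-330 2 of 12 were higher, Sparcl1 (1.56) and Fbln7 (0.80), and 0 lower, beside 5.53% and 5.28%. Sparc and Postn, the former the most abundant, were not called in either comparison.

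Regulators tied to these genes included Sox9 and its partners, which drive cartilage matrix genes including Comp. Sox9 (0.70), Sox5 (0.82) and Runx2 (0.70) were called higher in the skeletal cluster of UAC + miR-330 than in UAC, and Sox6 (0.52), the most abundant, was not called. Comp itself was lower in that comparison, at −0.39, and was not called. Myc (−0.89), a repressor of Thbs1, and the tendon factor Scx (−0.82) were called lower. These are 3 and 2 of 14 with enough UMIs, beside 5.53% and 5.28% of all genes. In UAC against sham 2 of 14 were higher, Jun (0.96) and Atf6 (0.77), and 0 lower, beside 6.81% and 1.02%. Egr1, picked once its values were known, had 174, 208 and 242 CPM in sham, UAC and UAC + miR-330. In the macrophage-like cluster Egr1 was called lower in UAC, at −2.10, and higher in UAC + miR-330, at 0.74, while Thbs1 rose in both steps. Of the 11 regulators with enough UMIs there, 0 were higher and 3 lower in UAC, beside 2% and 6.08% of all genes. Against UAC, 1 of 10 was higher in UAC + miR-330 and 0 were lower, beside 9.4% and 2.17%. The part of any of these regulators in the levels of the 5 genes was not tested.

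Promoter windows in RefSeq, 250 bases before and 50 after the start of a gene in build GRCr8, were given for 4 of the 5 genes, with Thbs2 not among them. The build behind the deposited tables was not given in the sources used here. Windows of Comp and Thbs3, whose patterns across clusters were alike, and of Thbs1, which was called higher in UAC + miR-330, are printed 5′ to 3′ on the gene's strand. Capitals mark letters of the TATA box TATAAA, of the CCAAT box, of the GC box GGGCGG, and of the SOX motif cores ACAAAG and ACAATG, all searched on either strand. No matches overlapped. The windows are chr16:19089499-19089798 on the minus strand for Comp, and chr2:176919349-176919648 and chr3:125510000-125510299 on the plus strand for Thbs3 and Thbs1.
Comp: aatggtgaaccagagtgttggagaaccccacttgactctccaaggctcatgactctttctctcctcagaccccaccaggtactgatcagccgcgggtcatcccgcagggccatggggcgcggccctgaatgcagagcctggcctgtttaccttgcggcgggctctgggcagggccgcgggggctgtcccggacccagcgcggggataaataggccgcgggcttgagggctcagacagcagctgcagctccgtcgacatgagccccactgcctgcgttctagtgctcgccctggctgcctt
Thbs3: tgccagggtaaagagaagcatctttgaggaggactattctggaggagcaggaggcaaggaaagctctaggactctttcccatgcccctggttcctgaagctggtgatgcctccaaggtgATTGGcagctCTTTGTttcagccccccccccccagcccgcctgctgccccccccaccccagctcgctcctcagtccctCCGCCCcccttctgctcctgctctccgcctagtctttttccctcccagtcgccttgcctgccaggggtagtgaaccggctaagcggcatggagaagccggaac
Thbs1: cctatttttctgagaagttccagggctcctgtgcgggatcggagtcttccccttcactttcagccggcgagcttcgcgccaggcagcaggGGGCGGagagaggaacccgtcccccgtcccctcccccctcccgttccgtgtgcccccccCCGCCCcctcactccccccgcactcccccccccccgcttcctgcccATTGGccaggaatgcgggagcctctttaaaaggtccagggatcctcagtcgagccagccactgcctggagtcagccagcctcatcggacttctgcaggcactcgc

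Thbs1 held 1 CCAAT at bases 196 to 200 and 2 GGGCGG, and Thbs3 held 1 CCAAT, 1 GGGCGG and 1 ACAAAG. The Comp window held none of the 5. Of 33469 windows of 300 bases, 14.2% held TATAAA, 37.5% CCAAT, 33.1% GGGCGG, 18.8% ACAAAG and 13.2% ACAATG on either strand. GC content was 64.7% for Comp, 61.7% for Thbs3 and 67.0% for Thbs1, beside a median of 51.7%. A match is a description of letters and not a bound site. In the same build 1 other gene overlapped Thbs1 and 0 overlapped each of the other 4, so reads of that overlapping gene could not be told apart from Thbs1 reads if counted together.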

How the data were processed

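The authors deposited 1 table per library of mean counts per gene and cluster, a signal scaled by cell depth. Dividing each cluster's signal by its smallest positive value gave UMIs: 100% of values came out whole within 0.01, the largest distance being 1e-07, and names on several identifiers were summed. The submitters' processing notes name Cell Ranger 7.0, STAR and Seurat 4.0.1, and human and mouse builds although the tables hold rat identifiers. The deposited log2 fold changes and p-values were not used. A count model was not run, since 1 library per condition gives no replicate spread. Cells could not be counted and doublets could not be called.

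Ratios have exact conditional binomial intervals. The members and lists were chosen with earlier results of these data known. The bound of 6 neutrophil markers and the levels per marker and per Comp UMI were set after the data were seen. Beside the 5 genes and cell type markers, the text names the 5 most similar genes of each and, for each list, the 3 with the most UMIs and the 3 largest called changes each way; Cd47, Sirpa, Egr1 and the genes leading a cluster were named after their values were seen. Some genes that this rule would name are not reported here. Of 125 list entries 113 matched by name and 7 by a RefSeq synonym (GRCr8). Python 3.11.15, numpy 2.4.6, pandas 2.3.3, scipy 1.17.1 and matplotlib 3.10.9 were used.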

Additional observations from a re-analysis of the deposited data

How the results depend on the processing

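Each condition had 1 library, so leaving out a replicate was not possible and no paired analysis was possible; a comparison of the proteins was planned and not run, because no protein sequences were at hand. Of the log2 ratios run again, 4 of 24 changed sign on the deposited mean counts and 1 of 8 with the skeletal cluster left out, and none did under other settings. On the deposited scale the skeletal cluster gave −0.044 for Thbs3 and 0.043 for Comp in UAC against sham, and 0.13 for Thbs2, −0.061 for Thbs3 and −0.16 for Comp in UAC + miR-330 against UAC; whole libraries gave −0.90 for Thbs3 and −0.81 for Comp, then 1.71 for Thbs1, 0.052 for Thbs2, −0.15 for Thbs3 and −0.24 for Comp. Median-of-ratios scaling gave −0.37 for Thbs3 and −0.28 for Comp in the skeletal cluster in UAC against sham and −0.42 for Comp in UAC + miR-330 against UAC; whole libraries gave −0.98 for Comp, then −0.51 for Thbs3 and −0.60 for Comp. Without abundant RNA classes Comp in UAC + miR-330 against UAC was −0.43 in the skeletal cluster and −0.55 in the library. With the skeletal cluster left out of the library, UAC against sham gave 1.29 for Thbs1, −0.084 for Thbs2, −1.29 for Thbs3 and −1.11 for Comp, and UAC + miR-330 against UAC gave 0.98, 0.14, −0.16 and −0.20. At 2-fold, 0 of the 5 genes were called higher in the skeletal cluster in UAC against sham, and 0 higher and 0 lower in the macrophage-like cluster in UAC + miR-330 against UAC; with 99% intervals 0 were lower in the latter. Over all genes at 2-fold, 408 were higher and 76 lower in the skeletal cluster in UAC against sham, and 226 and 340 in UAC + miR-330 against UAC; libraries had 405 and 313, then 398 and 168, and macrophage-like clusters 80 and 424, then 372 and 115. With 99% intervals 72 and 424 were lower in the skeletal cluster in the 2 comparisons, and 435 in the macrophage-like cluster in UAC against sham. Of the 5 most similar genes, ranks in place of values kept 0 for Thbs1, 0 for Thbs2, 2 for Thbs3, 0 for Thbs4 and 4 for Comp; clusters of sham alone kept 2, 0, 0 and 1 and 4 for Comp, those of UAC alone 3, 0, 2 and 2 and 0 for Comp, and those of UAC + miR-330 alone 1, 1, 1 and 0 and 2 for Comp. On the deposited mean counts every gene shifts by the same 0.20 in UAC against sham and 0.24 in UAC + miR-330 against UAC, and each other scaling likewise shifts every gene of a comparison alike; the cause of the remaining changes was not tested.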
